A study of Mus musculus with 6 samples.

Results

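The regions described here are stretches of accessible chromatin that were listed in mouse embryonic stem cells only after 96 h without the inhibitors that hold them in the naive state, and that lay away from the ends of genes. They were chosen by list membership: intervals of the 3 deposited peak lists (for 2iL and for 48 h and 96 h without it) that overlapped by 1 bp or more were merged, and a region was kept when it held an interval of the 96 h list only. Its midpoint also had to lie over 1 kb and up to 100 kb from the nearest end of a protein-coding gene. Of 131410 merged regions, 10093 met the rule. They were 19.2% of the 52546 regions of the 96 h list at these distances, and this share follows from the rule and was read as a description only. Another 639 regions of the 96 h list alone lay within 1 kb of a gene end and 3056 lay over 100 kb from one, and these were set aside. Every one of the 10093 regions held a single interval of the 96 h list.

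ATAC-seq, in which a transposase inserts adapters into open DNA, was done on 6 samples of E14, a mouse embryonic stem cell line derived from a blastocyst. All groups were grown on gelatin in N2B27, a serum-free medium. The 2iL group also received 3 uM CHIR99021, a GSK3 inhibitor, 1 uM PD0325901, a MEK inhibitor, and the cytokine LIF. The 48 h and 96 h groups were plated at single-cell density in 2iL, which was taken away on the following day, and were then held in N2B27 alone for 48 h or 96 h. Each group had 2 samples, A and B, and nothing in the labels says that these came from separate cultures. Both samples of a group share 1 peak list, so replicate spread was not measurable, the conditions could not be tested against each other, and p-values are absent from what follows. Values in brackets are 95% intervals of a share by the exact binomial (Clopper-Pearson) method. They reflect counting alone and take each region as independent of its neighbours.

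Distal accessible regions are where enhancers lie, the sequences that transcription factors bind to raise the output of genes at a distance. Which of them are open differs far more between cell types than which promoters are open, and a promoter is often open in cells that do not use it. Naive cells in 2iL keep a network of factors such as Esrrb, Klf4 and Tfcp2l1 active. When 2iL is removed the cells leave this state, pass through a formative stage, and in N2B27 many of them then take up neural fates.

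Absence from a list does not show that a region was closed, since a weak signal can fall just under the limit of a list. The 96 h list was the shortest, with 78055 intervals over 55.6 Mb, against 91228 over 66.8 Mb in 2iL and 88810 over 64.5 Mb at 48 h. An indirect measure of depth, the background that the fold and p of the summits imply, was 13.99 tags per position at 96 h, 14.2 in 2iL and 15.18 at 48 h, so the 96 h list was not the deepest by this measure. The lowest score kept was 540 in each list. Peak lists come from whole cultures, so a region open in more cells and a region more open in each cell cannot be told apart.

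Few of the 96 h-only regions lay on a known start of transcription, and for those that did the DNA could be read from the RefSeq table of promoter windows on mm10 (300 bases, from 250 before to 50 after a start). A window was counted when 150 bases or more of it were inside a region. Such starts lay in 103 of the 10093 regions, or 1.02% (0.834 to 1.24). This was close to the 0.952% of distal regions of the 2iL list alone and the 1.15% of those of the 48 h list alone. Of all RefSeq windows 35.3% were of long noncoding RNAs, and of the 110 starts in the 103 regions 68 were. The 250 bases before 6 of these starts are shown because each window lay wholly inside a 96 h-only region. They run from CpG-poor starts of high fold to a CpG-rich one and were picked after their values were seen. Itprid1 (plus strand, chr6:55836768-55837017), Ptprg (a receptor tyrosine phosphatase, plus strand, chr14:12189693-12189942), Osbp2 (an oxysterol-binding protein, minus strand, chr11:3722228-3722477) and Esrrg (an orphan nuclear receptor, plus strand, chr1:187651991-187652240) are protein-coding genes read here from starts inside them. Gm11476 (plus strand, chr2:167553062-167553311) is a long noncoding RNA near Snai1, and Gm33607 (plus strand, chr7:130309304-130309553) is one near Fgfr2. Letters run 5′ to 3′ on the strand of the gene, and capitals mark motifs of 6 or more letters, which are spelled out with their shares further on.
Itprid1: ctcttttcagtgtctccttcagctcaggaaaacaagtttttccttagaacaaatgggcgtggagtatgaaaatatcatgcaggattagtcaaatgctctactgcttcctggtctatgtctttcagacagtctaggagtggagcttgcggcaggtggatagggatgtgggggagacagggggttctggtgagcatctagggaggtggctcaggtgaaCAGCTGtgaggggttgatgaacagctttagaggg
Ptprg: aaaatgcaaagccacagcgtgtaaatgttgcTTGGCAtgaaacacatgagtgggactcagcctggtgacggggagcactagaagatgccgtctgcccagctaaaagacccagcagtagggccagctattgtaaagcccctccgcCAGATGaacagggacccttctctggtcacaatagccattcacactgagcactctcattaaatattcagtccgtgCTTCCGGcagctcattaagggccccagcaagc
Osbp2: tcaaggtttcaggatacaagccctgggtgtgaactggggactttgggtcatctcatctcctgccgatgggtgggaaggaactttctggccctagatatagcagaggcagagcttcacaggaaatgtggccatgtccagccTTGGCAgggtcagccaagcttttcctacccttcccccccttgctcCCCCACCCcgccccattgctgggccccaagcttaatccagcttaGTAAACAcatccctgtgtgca
Esrrg: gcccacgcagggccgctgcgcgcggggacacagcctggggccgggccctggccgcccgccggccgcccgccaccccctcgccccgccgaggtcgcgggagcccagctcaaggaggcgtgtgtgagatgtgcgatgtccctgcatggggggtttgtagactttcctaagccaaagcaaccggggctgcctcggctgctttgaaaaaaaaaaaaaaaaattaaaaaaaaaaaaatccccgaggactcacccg
Gm11476: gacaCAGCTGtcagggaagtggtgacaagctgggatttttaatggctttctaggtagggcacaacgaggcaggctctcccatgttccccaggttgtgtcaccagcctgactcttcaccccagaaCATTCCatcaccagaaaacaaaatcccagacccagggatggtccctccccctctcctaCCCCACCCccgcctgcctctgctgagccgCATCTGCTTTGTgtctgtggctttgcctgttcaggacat
Gm33607: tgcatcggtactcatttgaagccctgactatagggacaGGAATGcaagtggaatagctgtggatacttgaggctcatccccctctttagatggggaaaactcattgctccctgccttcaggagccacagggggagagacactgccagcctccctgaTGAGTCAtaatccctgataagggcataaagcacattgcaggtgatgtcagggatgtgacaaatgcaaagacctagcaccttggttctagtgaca
The regions around these starts had fold enrichments of 15.9 (Itprid1), 14.9 (Ptprg), 11.7 (Osbp2), 10.6 (Esrrg), 17.5 (Gm11476) and 7.80 (Gm33607) in the 96 h list. Fold is the authors' linear ratio of signal at the summit to its background. The printed Esrrg stretch held 22 CpG dinucleotides and none of the motifs. The other 5 held 1 to 6 CpG, namely 1 for Gm33607, 2 for Itprid1, 2 for Osbp2, 3 for Gm11476 and 6 for Ptprg.

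The 96 h-only regions were weaker and narrower than the other regions of the same list. Their median fold was 6.0, with quartiles of 4.73 and 7.80 and a range of 1.64 to 28.1. The 42453 other distal regions of the 96 h list had a median fold of 9.0, with quartiles of 6.20 and 13.1. Regions shared by 48 h and 96 h lay between, at 7.25, and regions of all 3 lists were highest, at 10.01. Since the 96 h-only regions were selected on their absence from the other lists, and weak regions are missed more easily, these values are given with no test. The median width was 451 bp (quartiles 306 and 613, longest 1800), against 638 bp for the other distal 96 h regions. A single summit was found in 62.9% of them and in 36.7% of the others. The tag pileup at the summit, recovered for 9942 of the regions, had a median of 112 (quartiles 87 and 161).

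**Figure D1:**
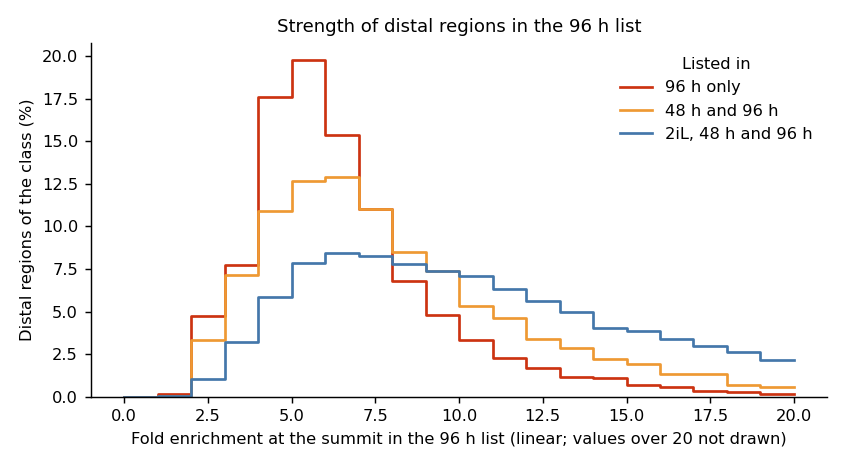
Share of the distal regions of each class (y axis, %) by fold enrichment at the summit in the 96 h list (x axis, linear, in steps of 1, with values over 20 not drawn). Lines stand for regions listed at 96 h only, at 48 h and 96 h, and in all 3 lists, and the 96 h-only line peaks between 5 and 6 while the line for all 3 lists is broader and reaches further right.

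The other classes that belong to 1 list only were also weak within their own list. Distal regions of the 48 h list alone had a median fold of 5.42, against 8.14 over all intervals of that list. Those of the 2iL list alone had 6.51, against 8.29 over all 2iL intervals. The whole lists include intervals at any distance from genes and the class itself. The 2iL-only class was the larger: 22066 of 65174 distal 2iL regions, or 33.9%, were in no other list. Weak regions made up most of the 96 h-only class. Among the distal 96 h regions ordered by fold and divided into 4 equal parts, 34.4% of the lowest part (fold 1.64 to 5.70) were 96 h-only, and the shares in the next parts were 25.3%, 12.4% and 4.67%. The lowest part held 44.8% of all 96 h-only regions and the highest, with fold over 12.2, held 6.08%, or 614 regions.

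Distance from genes went together with being listed at 96 h only. Between 1 and 5 kb from a gene end 14.2% (13.6 to 14.8) of the distal 96 h regions were 96 h-only. The share was 16.4% from 5 to 10 kb, 18.2% from 10 to 20 kb, 21.9% from 20 to 50 kb and 26.0% (25.1 to 27.0) from 50 to 100 kb. The median fold of the 96 h-only regions ran in the same order, from 4.54 within 5 kb to 6.60 from 50 to 100 kb. In each of the 4 parts by fold the share was larger from 20 to 100 kb than from 1 to 20 kb. It was 43.5% against 29.99% in the weakest part and 6.61% against 3.08% in the strongest. The median distance was 20.5 kb (quartiles 7.86 and 44.4), against 13.9 kb for the other distal 96 h regions and 12.8 kb for regions of all 3 lists. Distance had the same relation to being listed in 2iL only, where the share of distal 2iL regions ran from 27.4% within 5 kb to 38.3% from 50 to 100 kb.

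**Figure D2:**
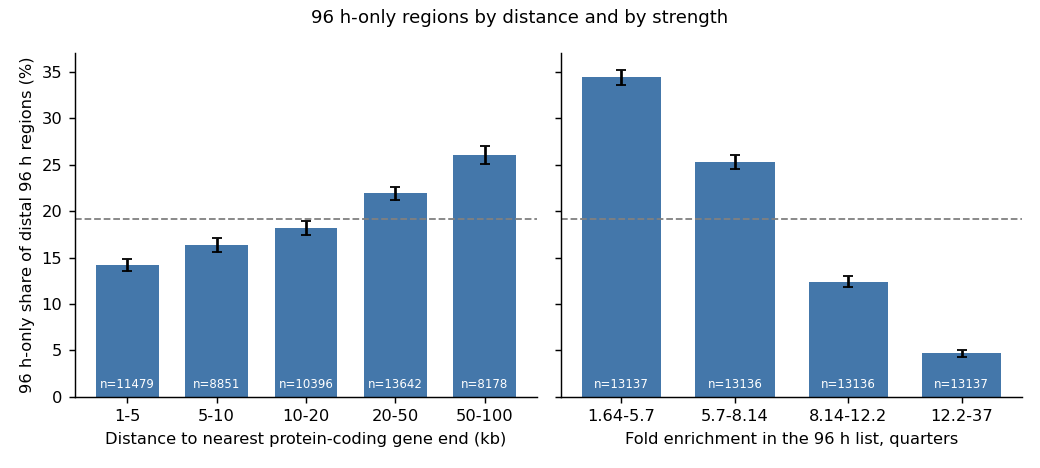
Share of distal 96 h regions that were in the 96 h list only (y axis, %), by distance to the nearest protein-coding gene end (left, kb) and by fold enrichment in 4 equal parts (right). Bars have exact binomial 95% intervals, n is the number of distal 96 h regions in each, and the dashed line is the share over all of them, 19.2%. The share climbs from 14.2% to 26.0% with distance and falls from 34.4% to 4.67% with fold.

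Inside or outside a gene, a property the rule did not use, the classes were close. Of the 10093 regions, 5783 had their midpoint inside a protein-coding gene, 57.3% (56.3 to 58.3). The share was 55.9% (55.4 to 56.4) for the other distal 96 h regions and 59.3% (58.6 to 59.9) for regions of the 2iL list only. The difference depended on distance: within 5 kb of a gene end 56.0% of the 96 h-only regions and 61.2% of the others were inside a gene, while from 10 to 20 kb the shares were 58.8% and 54.1%. The gene table gives no exons, so introns and exons were not told apart. By chromosome, the 96 h-only share of distal 96 h regions went from 16.0% on chromosome 17 to 21.9% on chromosome X, leaving aside chromosome Y with 5 of 20 regions.

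Most of the 96 h-only regions were clear of intervals of the earlier lists rather than at their edges. The gap to the nearest 2iL or 48 h interval had a median of 4.11 kb (quartiles 1.38 and 10.6). It was under 500 bp for 1094 regions (10.8%), with a smallest value of 16 bp, and over 10 kb for 2644 (26.2%). The distances were similar to both lists, with medians of 5.61 kb to a 2iL interval and 5.47 kb to a 48 h interval. The regions were also spread out among themselves, since the median distance from a 96 h-only region to its nearest fellow was 37.1 kb and 1958 of them (19.4%) had one within 10 kb.

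At the limits of the distance rule, the regions nearest on each side overlapped in strength at 1 kb, while at 100 kb those inside were stronger. These few regions do not describe either side as a whole. The nearest inside 1 kb were at Dscaml1 (1.004 kb, fold 7.94) and Fli1 (1.005 kb, fold 3.01). The nearest outside it were at Arsg (0.9985 kb, fold 2.30) and Slc1a3 (0.997 kb, fold 4.25). At 100 kb, the last ones inside were at Hmga2 (99.774 kb, fold 10.1) and Aff2 (99.7685 kb, fold 11.6), and the first ones outside at Camk2d (100.141 kb, fold 4.87) and Glis3 (100.178 kb, fold 9.07).

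The strongest 96 h-only regions ranked with the strongest regions of the whole list. The highest fold, 28.1, was at chr12:8401750-8402674, outside genes and 58.4 kb from an end of Hs1bp3, and it stood above 99.8% of the distal 96 h regions. The nearest 2iL interval was 29.5 kb away and the nearest 48 h interval 21.4 kb. A region inside Golph3, which codes for a Golgi membrane protein (chr15:12340882-12341783), had a fold of 27.9. On the same chromosome, a region 45.0 kb from Npr3, the clearance receptor for natriuretic peptides, had a fold of 26.5 (chr15:11794500-11795200). The fourth, with 26.4, lay 13.3 kb from Gmnc, a regulator of multiciliated cells (chr16:26943513-26944295). The other 6 of the 10 highest had folds of 24.4 to 24.9. They lay inside Gulp1, an adaptor for the engulfment of dying cells (chr1:44591686-44592213), and Asic2, an acid-sensing ion channel of neurons (chr11:81926225-81926931), and outside genes nearest to Tnip3, 3830417A13Rik, Klf7 (a Krüppel-like transcription factor) and Ehbp1. Of the 10, the region nearest to 3830417A13Rik on chromosome X was the most isolated, with 93.8 kb to the nearest interval of either earlier list. The region inside Gulp1 and the one near Ehbp1 had a 2iL interval within 6.58 kb and 5.28 kb.

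Each region was set against its nearest protein-coding gene, by gene end, on which it need not act. The 96 h-only regions were thinly spread over many genes. Of 13919 genes with a distal 96 h region, 5862 (42.1%) had 1 or more that were 96 h-only. Exactly 1 was found at 3561 genes, and 5 or more at 221. The 15 genes with the most held 148 regions, 1.47% of all. Genes with a 96 h-only region also had a region shared by 48 h and 96 h more often than genes without (53.2% against 36.9%). The number of regions per gene was not matched in this comparison, and its part in the difference was not tested.

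Most of these genes had an interval near an end in every list. Here an interval counted when any part of it lay within 1 kb of either end. The intervals of different lists need not overlap or lie at the same end. All 3 lists had such an interval at 77.2% of the 5862 genes. The share was 84.6% for the 221 genes with 5 or more 96 h-only distal regions. It was 74.2% for the 8057 genes with distal 96 h regions of other classes only. The 96 h list alone had one at 80 of the 5862 genes (1.36%) and at 53 of the 8057 (0.658%). A 96 h-only distal region just past 1 kb can itself count, as at Dscaml1 and Fli1. How far this raised the first of these shares was not tested. Among the 80, the genes with the most 96 h-only distal regions were Bcor, a Polycomb-linked corepressor, with 7, and Abca4, Gas7 and Shisal1 with 5 each. Gmnc and Pdgfra, a receptor for platelet-derived growth factor found on mesoderm and primitive endoderm, had 4 each, as did Gpr22 and Haao. Others of the 80 have roles in development: Gata4 and Foxa1 in endoderm, Runx2 in bone, Wnt11 and Axin2 in Wnt signalling, and Cyp26b1 in the breakdown of retinoic acid. The 80 also held genes of unrelated adult tissues, such as Il4, Rag1 and Cd3e of immune cells and Tg of the thyroid. Both sets of names were picked out after the values were seen, and neither describes the 80 as a whole.

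The largest group lay at Trabd2b, which codes for a membrane protease that cleaves Wnt ligands. Of its 25 distal 96 h regions 15 were 96 h-only, with folds of 2.31 to 9.61, and 9 of these were inside the gene. Trabd2b had 11 distal regions in 2iL and 10 at 48 h. At Myo16, an unconventional myosin of neurons, 11 of 20 were 96 h-only and the strongest had a fold of 19.2 (chr8:10613240-10613953). Of the 11, 10 lay from 9.26 to 86.9 kb on either side of the gene's higher-coordinate end. Fgfr2, a receptor for fibroblast growth factors, had 10 such regions among 21, only 2 of them inside the gene. Its distal regions numbered 5 in 2iL, 16 at 48 h and then 21 at 96 h, of which 9 were shared with 48 h and not with 2iL. The strongest of its 96 h-only regions, chr7:130129072-130129856, had a fold of 14.96, and the weakest 4.12.

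**Figure D3:**
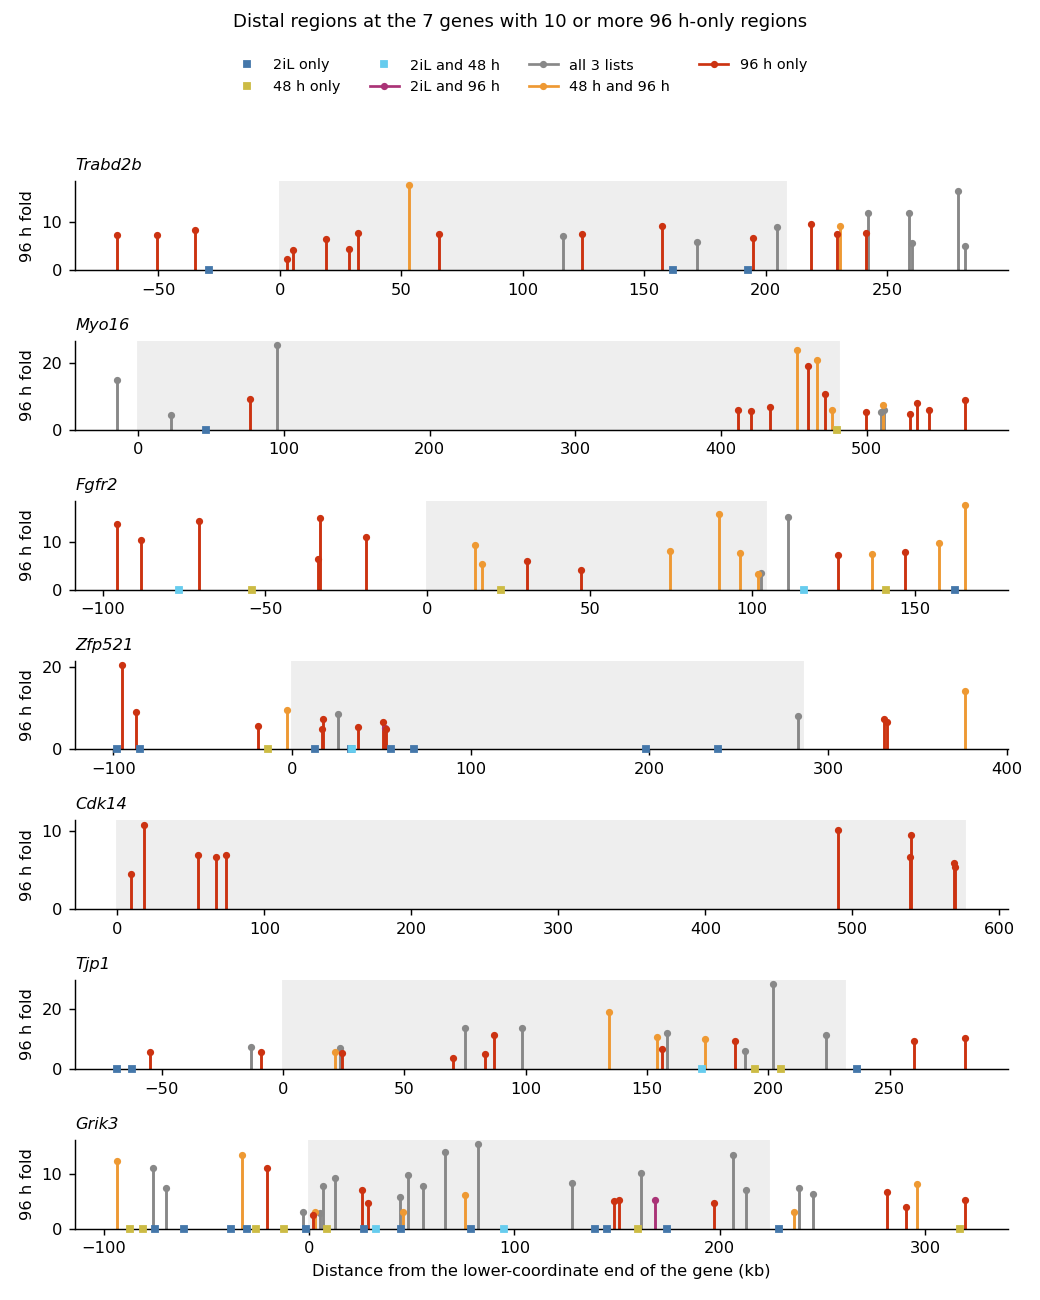
Distal regions of every class at the 7 genes with 10 or more 96 h-only regions, by distance from the lower-coordinate end of the gene (x axis, kb). Stem height is the fold enrichment in the 96 h list, and squares on the baseline are regions absent from that list. Colours give the lists that hold the region, and grey shading is the gene. Regions over 100 kb from a gene end and regions nearer to an end of another gene are not drawn. All 10 stems at Cdk14 are 96 h-only, while at Tjp1 and Trabd2b they stand among regions of all 3 lists.

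Cdk14, a cyclin-dependent kinase that acts on the Wnt coreceptor LRP6, had 10 distal regions at 96 h and none in either earlier list. This count takes in only regions whose nearest gene end was that of Cdk14. A 2iL and a 48 h interval lay beyond its lower end, 53.7 kb from the first of the 10, and were not counted. All 10 were inside the gene, which spans chr5:4803384-5380251. Their folds, in order of position, were 4.54, 10.9, 7.0, 6.74, 6.94, 10.2, 6.67, 9.47, 5.94 and 5.47. The first 5 lay within 74.1 kb of the lower end of the gene and the last 4 within 37.5 kb of its upper end, with the sixth between. Intervals of the earlier lists were far from most of them: the nearest 2iL interval was 34.0 kb or more away for 8 of the 10 and 6.14 and 6.79 kb away for the others. Each of the 3 lists had an interval within 1 kb of an end of the gene. Deeper in the gene, over 100 kb from its ends and so outside the rule, lay 5 regions of the 2iL list, 4 of the 48 h list and 7 of the 96 h list, 3 of these at 96 h only.

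Cxcr4, the receptor for the chemokine CXCL12, also had 96 h-only regions and no others of the 96 h list among the distal regions nearest to it. It had 8 of them, all outside the gene, against 2 distal regions in 2iL and 2 at 48 h. Their folds, in order of position, were 5.74, 7.94, 10.1, 14.1, 10.4, 4.74, 20.04 and 15.6, with a median of 10.2 against 6.84 at Cdk14. The strongest, chr1:128668886-128669739, lay 77.0 kb from the gene. In all, 28 genes had 3 or more 96 h-only regions and no other distal 96 h region assigned to them as nearest gene. They included Babam2 with 5, Kynu, Evc2 and Npnt with 4 and Ctnna2, an alpha-catenin of neurons, with 3. Of these, Babam2 and Ctnna2 are long genes that had 5 and 12 further 96 h regions over 100 kb from a gene end.

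Of the rest of the 15 genes, several act in neurons or at cell contacts. Zfp521, a zinc finger protein that promotes neural differentiation of embryonic stem cells, had 10 of 15, with a strongest fold of 20.5. It also had 8 distal regions in the 2iL list only, so it went from 12 in 2iL through 6 at 48 h to 15 at 96 h in total. Tjp1, the tight junction scaffold ZO-1, had 10 of 22. Grik3, a kainate receptor subunit, had 10 of 35 and 12 regions in 2iL only. Kcnd3, a voltage-gated potassium channel, had 9 of 12, with a strongest fold of 16.7. Nav2, which guides neurite growth, had 9 of 19, with a strongest fold of 22.4. Rbfox3, the neuronal splicing factor NeuN, had 9 of 23, with folds of 3.73 to 9.47. The others were Plxna2 (9 of 13), Greb1l (9 of 13), Plekhm3 (9 of 14), Zbtb7c (9 of 20) and Rgs3 (9 of 28).

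The 3 densest stretches of 200 kb each took in 2 or more genes. The first, chr19:6920444-7116933, held 12 96 h-only regions beside 8 other distal 96 h regions, nearest to Esrra, Flrt1, Kcnk4 and Macrod1. The next, chr1:64734807-64917557, held 11 and only 3 others, nearest to Plekhm3 and to Fzd5, a Frizzled receptor for Wnt. The last, chr12:8288932-8457386, held 10 beside 8 others, nearest to Gdf7 (a BMP-family ligand of the roof plate), Hs1bp3 and Rhob, and included the strongest 96 h-only region.

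Gene lists for cell types and pathways were read against the 19.2% over all distal 96 h regions. Because the 96 h-only share depended on fold and distance, each list is also given beside the share that all distal 96 h regions of the same fold part and distance range had, called the matched share. The lists were chosen with earlier results of these data known, some share genes, and no list was tested. Of the 19 lists, axon guidance had the highest share. Of 266 distal 96 h regions at its 28 genes, 93 were 96 h-only, 34.96% (29.2 to 41.0), where regions of the same fold and distance had 22.9%. The median fold of the 93 was 6.47. A 96 h-only region was found at 27 of the 28 genes, and of the 21 genes with 5 or more distal 96 h regions 17 had a share over 19.2%. Without Plxna2, the gene with the most, the share was 33.2%. These genes also had a large 2iL-only share, 39.3% of their distal 2iL regions, against 33.9% over all genes.

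Axon guidance genes code for secreted or membrane-bound cues and for the receptors that steer growing axons by attraction or repulsion. Among receptors, Plxna2, a plexin for semaphorins, had 9 of 13. Their folds were 2.87, 12.4, 5.54, 22.3, 5.0, 8.60, 4.47, 8.54 and 5.40, with 7 inside the gene and the strongest at chr1:194662984-194663588. Among cues, the semaphorin Sema6d had 8 of 13 with folds of 6.27 to 12.8, 4 of them inside the gene. Slit1, a repellent read by Robo receptors, had 8 of 26, all inside the gene. One of the 8, at chr19:41715987-41716820, had a fold of 22.0 and the others 3.46 to 10.8. The ephrin Efnb1 had 8 of 13 with folds of 3.65 to 8.0, and 7 of these lay outside the gene, up to 92.9 kb away. The ephrin Efna5 had 6 of 17.

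**Figure D4:**
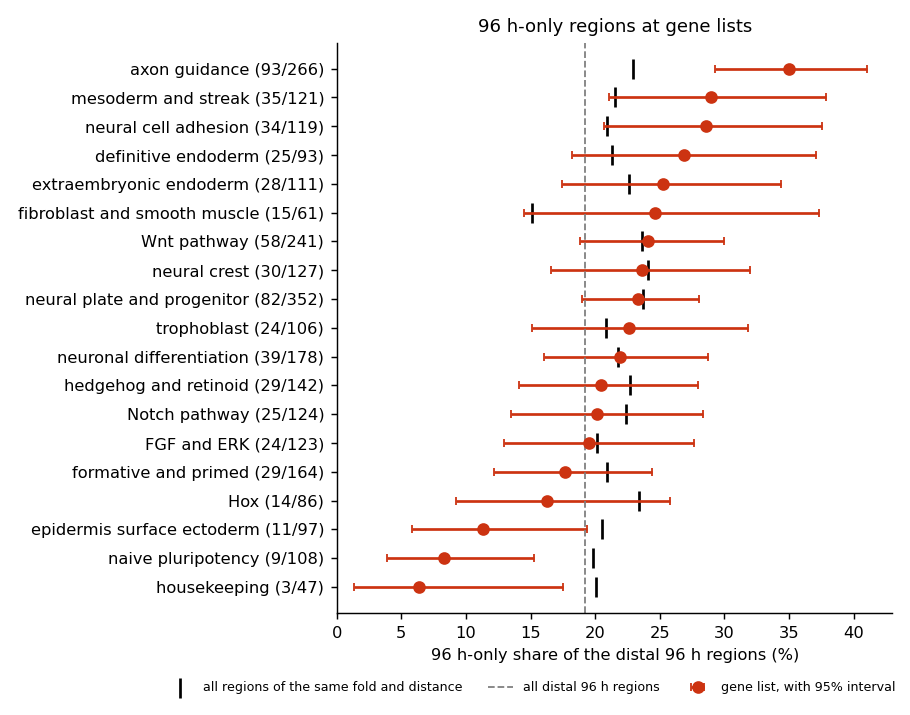
Share of the distal 96 h regions at the genes of each list that were 96 h-only (x axis, %), with exact binomial 95% intervals and the numbers behind each share after the list's name. The dashed line is the share over all distal 96 h regions, 19.2%, and black ticks give the share of all regions of the same fold and distance. Axon guidance lies highest, at 34.96%, and naive pluripotency and housekeeping genes lowest, at 8.33% and 6.38%.

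Neural genes other than those of axon guidance were nearer to the background. At 36 genes of the neural plate and of neural progenitors 82 of 352 distal 96 h regions were 96 h-only, 23.3% (19.0 to 28.1), against 23.7% for regions of the same fold and distance. The share was 21.4% without Zfp521. A region of this kind was found at 27 of the 36 genes. They included Pax7, a factor of the dorsal neural tube, with 6 of 22, and Rfx4, a regulator of neural tube patterning, with 5 of 16, all inside the gene. Irx3, Meis2 and Sox2 had 5 each, of 8, 20 and 16. Gene-end regions were listed for 33 of the 36 genes in 2iL and for all 36 in both later lists. Small changes were also seen at other lists. The counts rose at 39 Hox genes, from 31 in 2iL to 35 in both later lists. They fell at 20 naive pluripotency genes, from 18 in 2iL and at 48 h to 16 at 96 h. For 26 genes of neuronal differentiation the share was 21.9% (39 of 178, matched share 21.8%), led by Rbfox3 and by Ebf2, a helix-loop-helix factor, with 7 of 18. Neural crest genes had 23.6% (30 of 127, matched share 24.1%), led by Sox9 with 5 of 16 and Ets1 with 4 of 14. Neural cell adhesion genes, mostly cadherins and protocadherins, had 28.6% (20.7 to 37.6, 34 of 119) where the matched share was 20.9%, led by Cdh6 with 4 of 9.

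Lists for other lineages had shares on both sides of 19.2%. Mesoderm and primitive streak genes had 28.9% (21.05 to 37.9, 35 of 121) where the matched share was 21.5%. Kdr, the VEGF receptor of early vascular cells, led with 6 of 9, and the streak factor Gsc had 4 of 11. Definitive endoderm genes had 26.9% (25 of 93, matched share 21.3%), which became 17 of 85 without Cxcr4. Extraembryonic endoderm genes had 25.2% (28 of 111, matched share 22.6%), led by the laminin Lamb1 and Pdgfra with 4 of 10 each. Trophoblast genes had 22.6% (24 of 106, matched share 20.8%), or 16.5% without Fgfr2. Fibroblast and smooth muscle genes had 24.6% (14.5 to 37.3, 15 of 61), where the matched share was 15.1%. Genes of epidermis and surface ectoderm had 11.3% (5.80 to 19.4, 11 of 97), below the 20.5% of regions of the same fold and distance, and 4 of the 11 were at Grhl3. The cultures could hold cells of several of these types, and the part of their numbers in these shares was not tested.

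Among signalling genes, Wnt pathway genes had 24.1% (58 of 241), close to the 23.6% of regions of the same fold and distance. The nuclear effector Tcf7l2 had 6 of 21, with folds of 4.57 to 7.52, beside 12 regions in 2iL only. The secreted inhibitor Sfrp1 had 6 of 14, and the receptors Ror2 and Fzd10 5 each. Notch pathway genes had 20.2% (25 of 124, matched share 22.4%), with 5 each at the coactivators Maml3 and Maml2, 4 at the receptor Notch2 and 3 at the target Hes1. Hedgehog and retinoid genes had 20.4% (29 of 142, matched share 22.7%), led by the nuclear receptor Rxra with 6 and Gli3, the Hedgehog effector, with 5. FGF and ERK genes had 19.5% (24 of 123, matched share 20.2%), of which 10 were at Fgfr2, and 13.7% without it. Hox genes had 16.3% (14 of 86), against 23.4% for regions of the same fold and distance.

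Naive pluripotency genes had few. At 20 naive pluripotency genes 9 of 108 distal 96 h regions were 96 h-only, 8.33% (3.88 to 15.2), where regions of the same fold and distance had 19.8%. Tbx3 had 2 of 14, and Esrrb, Nr5a2, Dppa3, Tfcp2l1, Tcl1, Fgf4 and Socs3 had 1 each. Nanog, Klf4, Klf5 and Tet2 had 0, of 5, 5, 5 and 6 distal 96 h regions. Of the 12 genes with 5 or more distal 96 h regions, 1 had a share over 19.2%. In the other direction, 95 of their 222 distal 2iL regions were in 2iL only, 42.8%. This share was 33.9% over all distal 2iL regions and 39.3% at axon guidance genes. Formative and primed pluripotency genes had 17.7% (29 of 164), near the overall share and beside 20.9% for regions of the same fold and distance, with 4 each at the SOX factors Sox11 and Sox4. Housekeeping genes had 6.38% (1.34 to 17.5), beside a matched 20.1%, 2 at Ywhaz and 1 at Tbp among 47.

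The starts of transcription inside 96 h-only regions differed in base composition from those inside regions of all 3 lists. The 103 regions held 110 windows, 42 of protein-coding genes and 68 of long noncoding RNAs (61.8%). The share of long noncoding RNAs was 76.4% in 2iL-only regions, 70.2% in 48 h-only regions and 54.0% in regions shared by 48 h and 96 h. It was 35.3% in regions of all 3 lists and 35.3% over all RefSeq windows. The median number of CpG dinucleotides per window was 4.5 (quartiles 3 and 6), and 17 windows (15.5%) had 10 or more. Starts were found in 7.74% of the distal regions of all 3 lists, and in 0.952% of 2iL-only and 1.15% of 48 h-only ones. The 2874 windows in regions of all 3 lists had a median of 16 CpG (quartiles 8 and 26), and 69.7% had 10 or more. Windows in 2iL-only regions (229 windows, median 5) and in 48 h-only regions (131 windows, median 5) were CpG-poor in the same way. Over all 32851 RefSeq windows the median was 7. Distal regions within 1 kb of an end of a long noncoding RNA made up 4.08% of the 96 h-only class (412 regions) and 6.03% of the other distal 96 h regions.

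**Figure D5:**
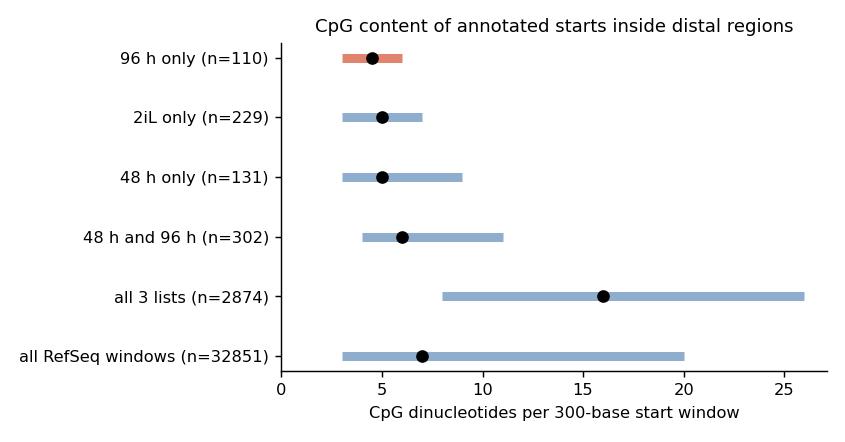
CpG dinucleotides per 300-base start window (x axis) for RefSeq starts inside distal regions of 5 classes and for all RefSeq windows. Dots are medians, bars run from the lower to the upper quartile, and n is the number of windows. Windows in 96 h-only regions have a median of 4.5 and windows in regions of all 3 lists a median of 16.

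Short motifs were searched for as exact letters on both strands of these windows. They were SOX (ACAAT plus the longer ACAAAG), POU octamer (ATGCAAAT), homeodomain (TAATTA), E-box (CAGCTG plus the related CATCTG), RFX (GTTGCCA), ZIC (CAGCAGG), AP-1 (TGACTCA), TEAD (GGAATG), NFI (TTGGCA), ETS (CCGGAAG), ESRRB (TCAAGGTCA), KLF (GGGTGGGG), GATA factors (AGATAA), FOX (TGTTTAC), CTCF sites (AGGGGGC), LEF/TCF proteins (CTTTGAT) and GRHL (AACCGGTT). None of these is part of another on either strand, though neighbouring matches can share bases. Values are given for 6 motifs that were more or less frequent than in other windows, picked after all had been seen. GGAATG was in 34 of the 110 windows of 96 h-only regions, 30.9% (22.4 to 40.4), against 13.2% in regions of all 3 lists, 21.8% in 2iL-only regions and 14.7% of all windows. It was in 17.7% of all windows with fewer than 10 CpG. CAGCAGG was in 23.6% (16.1 to 32.7), against 12.7%, 12.2% and 10.5% in the same order, and 10.8% of all windows with fewer than 10 CpG. In 48 h-only regions its share was 21.4%. CAGCTG was in 33 of the 110 (21.6 to 39.5%), and in 28.1% of windows in regions shared by 48 h and 96 h, 18.3% of those in all 3 lists and 16.3% of all windows. Its share was 24.9% in 2iL-only regions and 17.6% of all windows with fewer than 10 CpG. The other 3 were less frequent than in all windows with fewer than 10 CpG, but no less frequent than in regions of all 3 lists. AGATAA was in 9.09% (4.45 to 16.1) against 16.3% and 5.60%. TAATTA was in 2.73% (0.566 to 7.76) against 7.91% and 2.64%, and ACAAT in 32.7% (24.1 to 42.3) against 41.9% and 21.7%. Over all windows the 3 shares were 11.2%, 5.29% and 31.0%. ACAAAG, the other SOX motif, was in 29.1% (20.8 to 38.5), against 24.0%, 15.9% and 18.7% in the same order. ATGCAAAT, TCAAGGTCA and AACCGGTT were in 1 window each. The 110 windows lie in 103 regions, so a few overlap and can count a match more than once. They come from 1.02% of the regions and are starts of transcription, so they do not describe the other regions, and a match is no sign of binding. In the sequences printed above, GGAATG is marked in those of Gm33607 and, on the other strand, Gm11476, and CAGCTG in those of Itprid1 and Gm11476.

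A few of the regions held microRNA hairpins. Mir27a, Mir24-2 and Mir3074-2, which lie in 1 cluster, were in a region of fold 2.97 (chr8:84208641-84208999). Mir7074 was in a region of fold 14.2 near Slc12a4, and Mir3085 in one of fold 11.7 near Crtac1. Mir8113, Mir6366 and Mir2137 overlapped regions of the 96 h list only with folds of 3.71, 3.94 and 3.24. Far more hairpins lay in regions of all 3 lists, which were also more numerous (30256 distal regions against 10093). Shares per class were not compared.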

How the data were processed

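The sources were 3 deposited peak lists, 1 each for 2iL, 48 h and 96 h, which the authors made from samples A and B of a group together, per the labels' descriptions. Tools named in the submitters' processing notes are BWA, Picard, SAMtools and bcl2fastq 2.20.0.422, with mm10 as the build. Not given in the sources used here are the peak caller, its limits, the treatment of duplicates and any shift of reads, and each could change which weak regions are listed. Per interval and summit the authors deposited a fold, which is a linear ratio, p-values as −log10, a score in whole numbers, and an offset of the summit in bases. They were used only within their own list. Where an interval had several summits, the one of highest −log10 p stood for it. The fold, p, score and summit offset were read, and no other column of values. The tag pileup was recovered from fold and p, within a tolerance of 0.02 of a whole number.

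Gene positions (21887 protein-coding genes) and start sequences came from RefSeq tables of GRCm38.p6, the assembly of mm10. The gene table has no strand, so distance was taken to either end. No genome sequence was used, so the planned sequences and motifs at summits were replaced by RefSeq start windows that overlapped a region by 150 bases or more, a choice made after the files were seen. All 419 entries of 19 gene lists matched. The rule for named items was the 10 regions of highest fold, the nearest regions on both sides of each distance limit, the 15 genes with the most regions, up to 4 genes of each list, and the 3 densest stretches of 200 kb. A few others are named beyond this rule and were chosen after their values were seen. The members and lists were chosen with earlier results of these data known. Counting used Python 3.11.15 with pandas 2.3.3, NumPy 2.4.6 and SciPy 1.17.1, and the merging and distances were tested on simulated data. Alternatives changed the length of the lists, the overlap that counts as shared and the distance range.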

Additional observations from a re-analysis of the deposited data

How the results depend on the processing

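The number of 96 h-only distal regions, 10093, was 6541 with the upper 75% of each list by −log10 p, 1106 with the upper 50% of the 96 h list against the whole other lists, and 6334 at 5 to 50 kb from a gene end. Their share of the distal 96 h regions, 19.2%, was 17.2% and 4.81% at the first 2 of these settings, 23.4% with all lists cut to 78055 intervals, 17.1% when an interval within 500 bp counted as shared, and 20.1% when under 50% coverage counted as not shared. The median fold was 8.34 and 12.5 at the upper 75% and 50%, and 6.14, 6.07 and 6.10 with the 500 bp, coverage and 5 to 50 kb settings. The median width was 536, 660 and 465 bp at the upper 75%, the upper 50% and the coverage setting. The share inside genes was 55.6% at the upper 50% and 58.4% at 5 to 50 kb. The share at neural plate and progenitor genes was 18.1% and 6.59% at the upper 75% and 50%. Axon guidance genes had 9.09% and naive pluripotency genes 1.96% at the upper 50%. These last 2 shares and the overall share were added to the results compared after seeing the data. The stricter settings remove weak regions by construction. At the other settings shares and medians stayed within the 95% interval of the first value, and the number of regions within 1.5 times.

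No paired analysis was possible because each group had 1 peak list made from samples A and B together, and for the same reason no replicate was left out. Depth is known only through the recovered background (13.99 tags per position at 96 h), and a region under the limit of a list counts as absent from it.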
